A study of Mus musculus with 16 samples.

Results

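The proteasome genes of splenic CD4 T cells are described here across a mouse B cell lymphoma. They were taken as every row of the count table whose symbol begins with Psm, a letter from a to g and a digit, and the pattern found 49 of 23479 genes. RNA was sequenced from CD4 T cells of C57BL/6 mice, the helper lineage of T cells, purified from spleen with magnetic beads that remove the other cells. Eµ-Myc lymphoma is a B cell tumour whose Myc oncogene is driven by an immunoglobulin heavy chain enhancer (written Eu-Myc in the labels). Mice that had received these cells as a transplant gave 7 libraries at day 7 and 4 libraries at day 14, and mice with no tumour, labelled control and day 0, gave 5 libraries. No further treatment is given for any group, and the age of the mice is not given in the sources used here.

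The proteasome is the protease that removes ubiquitin-tagged proteins. Its barrel-shaped core is built from alpha subunits (Psma genes), which gate the entrance, and beta subunits (Psmb genes), of which Psmb5, Psmb6 and Psmb7 cut peptide bonds. A cap of ATPases (Psmc) and other subunits (Psmd) binds ubiquitin chains, unfolds the substrate and feeds it into the core. Activator genes (Psme) encode other rings that open the core, and Psmg genes encode chaperones that help the core assemble. In lymphocytes, and in other cells under interferon gamma, Psmb8, Psmb9 and Psmb10 replace Psmb5, Psmb6 and Psmb7 in newly made cores, which are then called immunoproteasomes and supply peptides to MHC class I. Dividing and activated T cells are known to use more proteasome than resting ones.

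By role the rows held 8 Psma, 11 Psmb, 6 Psmc, 14 Psmd, 4 Psme and 4 Psmg genes, and 2 others. The pattern also took in Psmf1, which encodes an inhibitor of the core, and Psmc3ip, which encodes a meiotic recombination factor and no subunit. Counted with the Psmd genes here are Psmd5, Psmd9 and Psmd10, which encode chaperones that help the cap assemble. All 49 passed the filter on low counts. Psma8, a testis form of an alpha subunit, and Psmb11, the beta subunit of the thymus cortex, were close to absent: Psma8 stood at 0 to 1.58 CPM (a gene's counts scaled to a fixed library size, with TMM factors that level libraries on the bulk of their genes) over the 16 libraries and Psmb11 at 0 to 2.26 CPM, where 3 reads in a library correspond to 0.112 to 0.199 CPM. Levels were also divided by the kilobases of annotated exon, joined over all transcripts of a gene, which compares genes only roughly. On this scale Psme1 was the most abundant of the 49 in control libraries, with a mean of 156 CPM per kb. Psmc1 followed with 64.6 and Psme3 with 62.7 CPM per kb. On the same scale the immunoproteasome gene Psmb8 had 46.9 CPM per kb, against 9.0 for Psmb5, the subunit it replaces. For Psmb9 and Psmb10 the levels were 12.8 and 38.7, against 51.6 for Psmb6 and 25.2 for Psmb7. Per kilobase, Psmb8 and Psmb10 were thus above their partners and Psmb9 below. For Psmb10 that order turned on the joined exon lengths, 1705 bases against 3421 for Psmb7. Without division by length, Psmb10 had a control mean of 66.0 CPM and Psmb7 86.4 CPM. Of the 50-base stretches of Psmb5 transcripts, 54.1% are also found in transcripts of other annotated genes, among them the pseudogene Psmb5-ps, and reads placed at more than 1 position stand in a line of their own in the table, so its level is uncertain. Psmb6 transcripts share few such stretches, with Psmb6-ps2. In 11 of the 49 genes at least 10% of the stretches were shared. Besides Psmb5 they include Psme2 (28.3%), Psmd2 (17.8%), Psma3 (15.4%), Psma4 (14.3%), Psmc1 (14.1%) and Psmb8 (11.9%). Exons of 9 of the 49 overlap another gene of the table, among them Psmb7, where 11.8% of the exon length overlaps Nek6. The levels of these genes are less certain too.

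Promoters are shown for the genes on which the results below turn: Psmd4, Psmb6 and Psmd8, which were lower at day 14, Psmd2, whose libraries did not overlap the controls at either day, and the immunoproteasome genes Psmb8 and Psmb9, which were not called. Each line gives the 250 bases before the RefSeq transcript start (GRCm38.p6), 5′ to 3′ on the gene's strand. Capitals mark matches, on either strand, to 5 short motifs: TGACNNNGC (the core of the antioxidant response element bound by NRF factors, which induce proteasome genes), CCAAT (the NF-Y box), CCGGAAG (an ETS family core), a GAAA followed 2 bases later by a further GAAA (the interferon-stimulated response element) and TTCNNNGAA (the gamma-activated site of STAT factors). None of these matches overlapped another in the 6 promoters. The regions are chr3:95042615-95042864 (minus strand), chr11:70525107-70525356 (plus strand), chr7:29180674-29180923 (minus strand), chr16:20651402-20651651 (plus strand), chr17:34197945-34198194 (plus strand) and chr17:34187331-34187580 (minus strand).
Psmd4: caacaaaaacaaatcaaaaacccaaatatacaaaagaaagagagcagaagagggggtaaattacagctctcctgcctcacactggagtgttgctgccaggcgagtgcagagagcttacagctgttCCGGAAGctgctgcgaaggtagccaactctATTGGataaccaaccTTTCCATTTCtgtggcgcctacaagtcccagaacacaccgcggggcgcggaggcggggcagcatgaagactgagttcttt
Psmb6: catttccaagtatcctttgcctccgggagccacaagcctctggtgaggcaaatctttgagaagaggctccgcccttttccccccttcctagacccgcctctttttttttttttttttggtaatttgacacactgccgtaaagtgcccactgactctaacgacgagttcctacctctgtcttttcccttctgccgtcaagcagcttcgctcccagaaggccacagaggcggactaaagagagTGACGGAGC
Psmd8: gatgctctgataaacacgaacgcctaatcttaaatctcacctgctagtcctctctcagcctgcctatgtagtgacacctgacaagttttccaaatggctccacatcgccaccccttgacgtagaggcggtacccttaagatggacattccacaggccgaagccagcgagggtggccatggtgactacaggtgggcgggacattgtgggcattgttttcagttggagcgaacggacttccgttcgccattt
Psmd2: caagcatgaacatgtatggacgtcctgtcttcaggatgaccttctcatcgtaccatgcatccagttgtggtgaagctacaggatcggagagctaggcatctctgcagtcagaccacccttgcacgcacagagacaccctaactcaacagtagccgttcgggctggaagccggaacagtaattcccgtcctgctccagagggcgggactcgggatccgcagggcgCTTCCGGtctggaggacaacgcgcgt
Psmb8: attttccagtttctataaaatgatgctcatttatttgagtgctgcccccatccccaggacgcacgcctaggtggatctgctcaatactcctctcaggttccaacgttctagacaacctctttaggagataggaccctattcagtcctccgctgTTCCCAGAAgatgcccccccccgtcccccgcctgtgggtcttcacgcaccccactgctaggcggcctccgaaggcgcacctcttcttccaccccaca
Psmb9: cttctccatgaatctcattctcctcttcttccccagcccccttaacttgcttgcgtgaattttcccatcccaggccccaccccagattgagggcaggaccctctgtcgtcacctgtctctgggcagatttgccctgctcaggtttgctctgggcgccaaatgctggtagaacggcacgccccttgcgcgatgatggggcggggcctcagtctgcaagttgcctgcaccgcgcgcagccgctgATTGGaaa

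RefSeq promoters were found for 41 of the 49 genes, as 44 entries. The ETS core CCGGAAG lay in 14 of these 44 (31.8%), against 6.91% of all 32851 promoters of the same length. Promoters of genes expressed in these cells were not counted apart, so the difference may not be particular to proteasome genes. It was present before Psmd4, as CCGGAAG, and before Psmd2, as CTTCCGG, its reverse complement. Psmd4 also held a reversed CCAAT box (ATTGG) and a reversed interferon-type match (TTTCCATTTC). CCAAT lay in 34.1% of the proteasome gene promoters and 33.8% of all promoters, TGACNNNGC in 11.4% and 10.2%, the interferon-stimulated element in 6.82% and 2.98%, and TTCNNNGAA in 4.55% and 7.02%. TGACNNNGC was matched before Psmb6, as TGACGGAGC, and before Psmb5. The TTCNNNGAA match TTCCCAGAA lay before Psmb8, and Psmb9 had an ATTGG that begins 8 bases before its RefSeq start. No motif was matched before Psmd8. Psmb9 and Tap1, which encodes a chain of the peptide transporter, start 211 bases apart on opposite strands of chromosome 17, by the GENCODE annotation, with exons that overlap by 212 bases. GENCODE places the starts of Psmb9 and Psmb8 upstream of the RefSeq ones, at 34187764 and 34197721, so both promoters shown lie inside the GENCODE genes. The distance and the overlap with Tap1 hold for the GENCODE starts only. Whether the counting used strand is not given in the sources used here, and reads of the overlapping stretch may belong to either Psmb9 or Tap1. A match is a stretch of letters, and no binding was measured.

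Libraries differed in ways that touch these genes. Gene counts were 14493764 to 24916411 per library at day 7, 14731908 to 17067236 at day 14 and 21610411 to 27340070 in controls. Reads outside gene models took 54.6% to 68.0% of the table's total at day 7, 54.4% to 69.8% at day 14 and 47.1% to 56.7% in controls. Control libraries 1 and 2 stood apart: the 8 genes of dividing cells summed to 1732 and 3978 CPM in them and to 275 to 465.7 CPM in control libraries 3 to 5. That sum was 178 to 661 CPM at day 7 and 365 to 1884 CPM at day 14. The 9 neutrophil genes summed to 835 and 2269.8 CPM in control libraries 1 and 2, to 1729.6 CPM in day 14 library 4 and to at most 60.8 CPM in any other library, and 8 of the 9 were at 0 in at least 1 library. Sums over the 7 B cell genes were 14.8 to 30.6 CPM at day 7, 17.2 to 34.6 CPM at day 14 and 12.7 to 66.4 CPM in controls, with none at 0. The 5 MHC class II genes, also none at 0, summed to 7.96 to 132, 21.9 to 54.8 and 47.2 to 517 CPM in day 7, day 14 and control libraries. The 4 macrophage genes in the table, with Lyz2 at 0 in some libraries, summed to 16.4 to 44.0 CPM at day 7, 19.6 to 92.4 CPM at day 14 and 8.08 to 557 CPM in controls. Of 6 erythroid genes 4 were at 0 throughout and the sum reached 105 CPM in control library 2. The 2 CD8 genes stayed at 5.68 to 17.6 CPM, and the 5 CD4 T cell genes in the table, defining for the purified cells, at 2239 to 5068 CPM. In bulk RNA, fewer cells that express a gene and less of it per cell cannot be told apart. The part of other cells in the proteasome results was not tested beyond the refits without control libraries 1 and 2.

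As a set the proteasome genes were lower in lymphoma-bearing mice. Summed over the 49 genes they made 2695 to 3358 (median 3037) CPM at day 7 and 2390.4, 3629, 2761 and 3131 CPM in day 14 libraries 1 to 4, against 3661, 4055, 3537, 3518 and 3402 CPM in control libraries 1 to 5. Every day 7 library lay below every control library, while day 14 library 2 lay within the control range and the other 3 day 14 libraries lay below it. The mean sum at day 7 was 83.2% of the control mean, and at day 14 81.9%. The core alpha sum was 78.4% and 78.2% of control, the ATPase sum 78.4% and 78.01%, and the sum of the Psmd genes 78.3% and 81.6%. The core beta sum stood at 87.8% and 81.7%, and the activator sum at 93.7% and 89.0%. The Psmg sum stood at 81.6% and 76.1%. The order of the roles turned on control libraries 1 and 2. Set against control libraries 3 to 5 alone, the sum of all 49 was 86.8% and 85.4% at day 7 and day 14. Core alpha then stood at 82.5% and 82.3%, core beta at 85.5% and 79.5% and the ATPases at 86.1% and 85.7%. The Psmd genes stood at 86.2% and 89.9%, the activators at 91.4% and 86.9% and the Psmg genes at 94.2% and 87.8%. These sums are descriptions and carry no test.

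**Figure D1:**
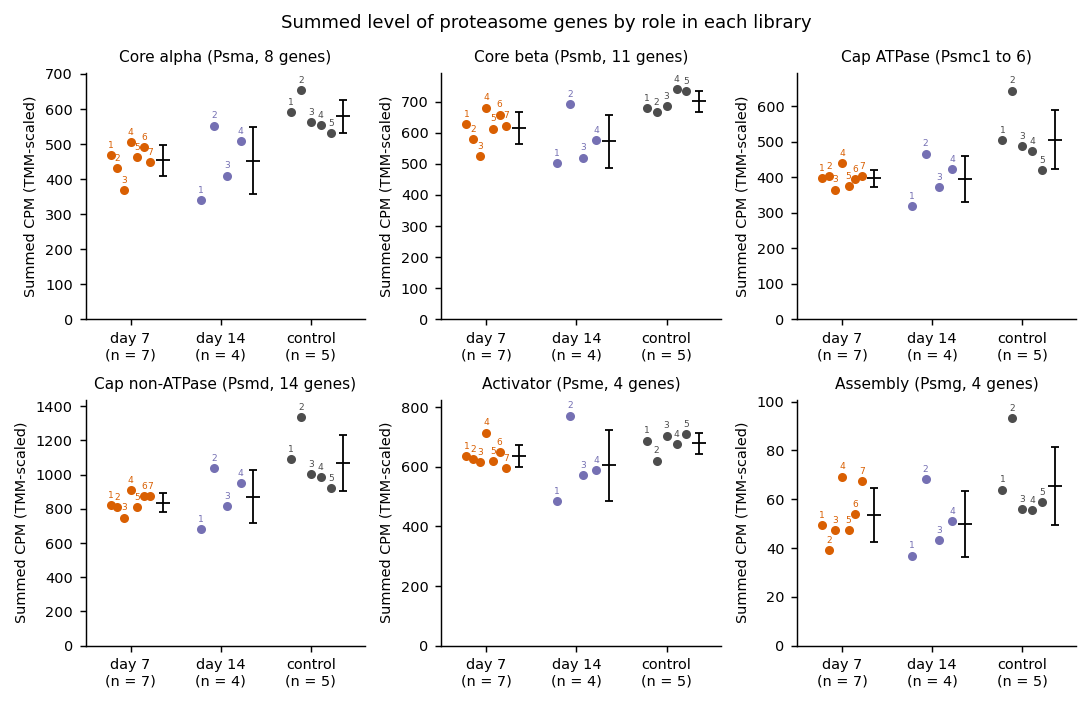
Summed CPM (TMM-scaled) of the genes of each role in every library, with library numbers beside the points and the mean ± SD of each group as a bar. In the core alpha panel all 7 day 7 libraries, at most 505 CPM, lie below all 5 controls, at least 531 CPM, while in the activator panel the groups overlap.

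The sum also moved with the share of reads outside gene models. Within day 7, libraries 1, 4, 6 and 7, with 54.6% to 55.8% of reads outside, had sums of 3037 to 3358 CPM, and libraries 2, 3 and 5, with 61.7% to 68%, had 2695 to 2959 CPM. Within day 14 the order was exact: 54.4% outside went with 3629 CPM in library 2, 62.3% with 3131 CPM in library 4, 66.3% with 2761 CPM in library 3 and 69.8% with 2390.4 CPM in library 1. Day 14 library 2 held the group's highest level of 39 of the 49 genes, and library 1 the lowest of 33. Control libraries 1, 3, 4 and 5 had the same order, with 3661 CPM at 47.1%, 3537 CPM at 48.7%, 3518 CPM at 51.4% and 3402 CPM at 51.7%. Control library 2, which stands apart in dividing-cell and neutrophil genes, had the highest control share (56.7%) and the highest sum. The median log2 change of the 49 genes minus that of all tested genes was -0.35 at day 7 and -0.46 at day 14, both against control, and -0.07 and -0.0018 with the share as a covariate. Since both day 7 and day 14 libraries have higher shares than most controls, lymphoma and this share cannot be fully told apart.

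**Figure D2:**
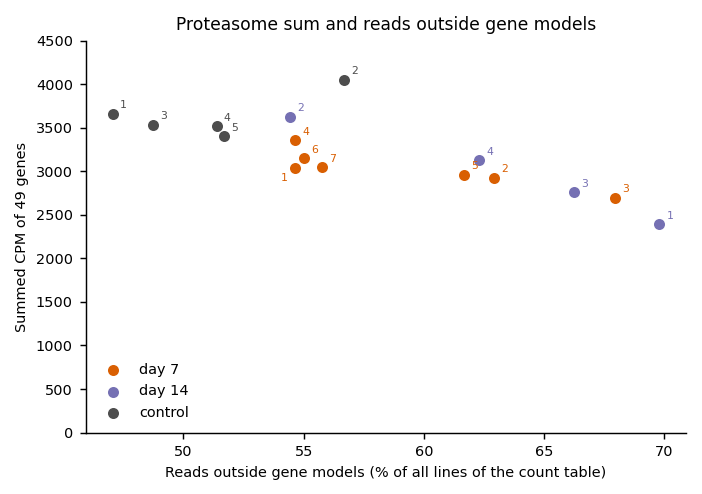
Summed CPM of the 49 genes (vertical axis, from 0) against the share of reads outside gene models (horizontal axis, percent), 1 numbered point per library and 1 colour per group. Day 14 points lie between 3629 CPM at 54.4% and 2390.4 CPM at 69.8%, and control library 2 stands highest at 4055 CPM.

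The comparison of day 7 with control asks what differed early after transplant. Most proteasome genes were lower at day 7, none by enough to be called on its own: 44 of 49 had a negative log2 change, against 43.8% of the 18430 genes tested, and the median was -0.29, against 0.07 over all genes. With edgeR's quasi-likelihood test and an adjusted p threshold of 0.05, 0 of 49 were called lower, where 0% of all genes were called lower and 0.0109% higher. At an unadjusted p below 0.05, 26 of 49 were lower and 0 higher, against 12.7% and 8.43% of all genes. DESeq2 called 13 of the 49 lower, with 1104 genes of the whole table, and limma-voom 0, with 0. In 6 genes, Psma7, Psmb2, Psmc1, Psmd2, Psmd4 and Psme3, every day 7 library lay below every control library, which held for 0.982% of all genes, and no gene had every day 7 library higher, against 0.988%. Without control libraries 1 and 2, 14 of 49 were lower at an unadjusted p below 0.05 and the median was -0.17, against 0.12 over all genes. With the share of reads outside gene models as a covariate, 8 were, and the median was -0.15, against -0.08 over all genes. The share of all genes at an unadjusted p below 0.05 was not counted in either refit. Whether 14 and 8 exceed it is therefore not known. Leaving out control library 5 gave 8 calls, with 1026 lower genes in the whole table, and leaving out any other single library gave 0.

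**Figure D3:**
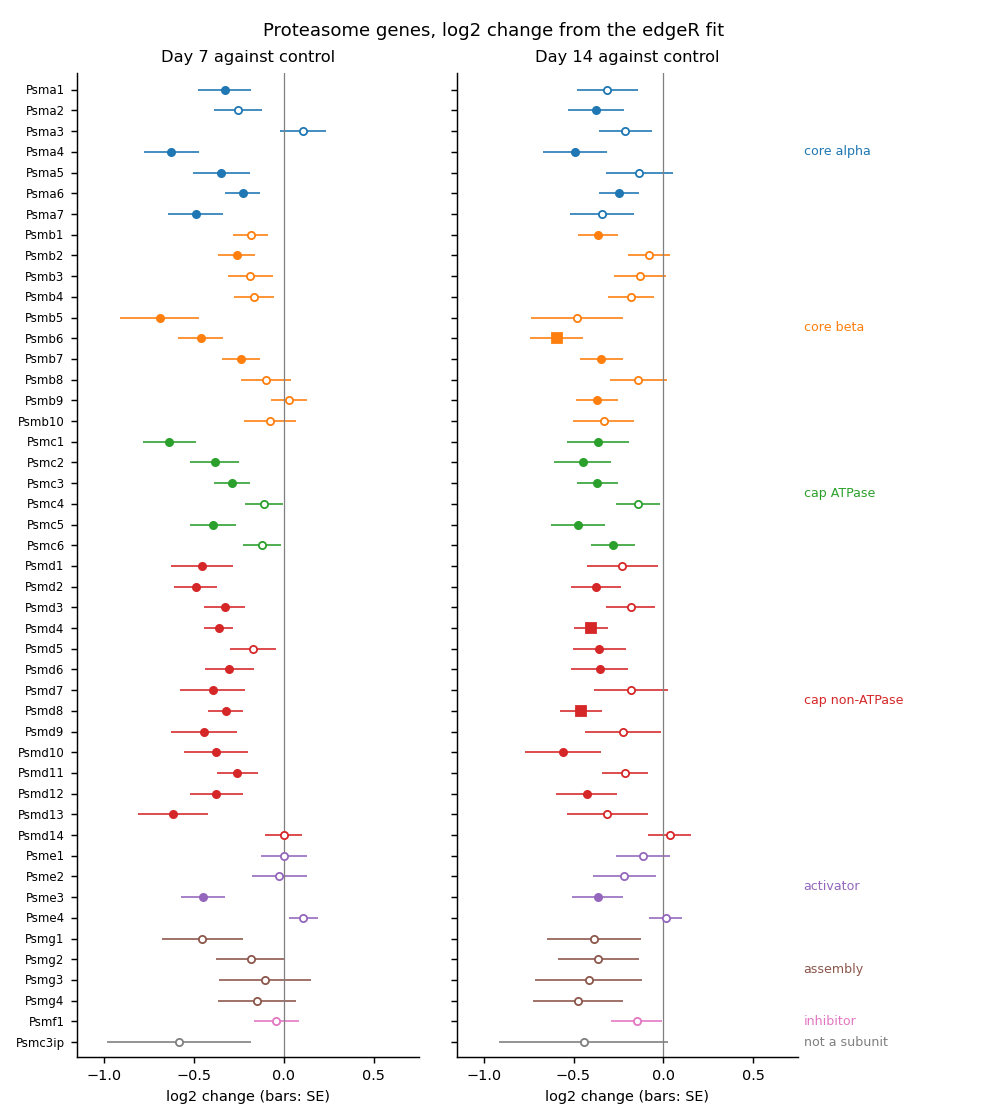
Log2 change (points, with SE bars) of 47 proteasome genes at day 7 and at day 14, each against control, grouped and coloured by role; Psma8 and Psmb11, which are near 0 CPM, are left out. Filled circles have an unadjusted p below 0.05, and squares, which appear for Psmb6, Psmd4 and Psmd8 at day 14, an edgeR adjusted p below 0.05. Most points lie left of 0 in both panels, and Psmb8, Psmb9, Psmb10, Psmd14, Psme1, Psme2 and Psmf1 lie nearest to 0 at day 7.

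No cap gene was called at day 7. All 20 genes of the cap group (Psmc1 to Psmc6 and the Psmd genes) had a log2 change under 0 (median -0.37), and 16 of them had an unadjusted p below 0.05. Psmd4, a ubiquitin receptor of the cap (chromosome 3, 95032694 to 95042614, minus strand, GRCm38), had the smallest p of the set. Its values were 75.3 to 90.8 (median 87.5) CPM over the 7 day 7 libraries, against 106, 123, 101, 109 and 103 CPM in control libraries 1 to 5. The highest day 7 library stayed below the lowest control. The log2 change was -0.36 ± 0.08 (SE) with an edgeR adjusted p of 0.0709, short of the threshold. Psmc1, an ATPase at the mouth of the core, stood at 73.1 to 88.3 (median 79.3) CPM at day 7, against 121, 190.3, 107, 114 and 91.8 CPM in controls. The groups did not overlap, and control library 2 was far above the other controls (log2 change -0.64 ± 0.15, edgeR adjusted p = 0.0728). Psmd2, the large scaffold subunit that docks ubiquitin receptors, stood at 72.6 to 102 (median 82.1) CPM at day 7, against 105, 159, 109, 119.8 and 103 CPM in controls, and again no day 7 library reached the lowest control (log2 change -0.49 ± 0.12, adjusted p = 0.0777). The lowest log2 change among the Psmd genes was that of Psmd13, a cap lid subunit, at -0.62 ± 0.19 (adjusted p = 0.0895). Psmd14, the deubiquitinase that strips ubiquitin from substrates, had a mean close to control, at 77.6 ± 9.05 CPM at day 7 and 77.7 ± 6.66 CPM in controls (SD, n = 7 and 5). Its log2 change of -0.0023 ± 0.10 was positive in 8 of the 10 other settings, both other scalings among them. Psmc4 had the smallest change among the ATPases, -0.11 ± 0.11 (adjusted p = 0.604).

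In the core the alpha genes were lower except 1. Of the 7 that are expressed in these cells, 6 had negative changes and 5 an unadjusted p below 0.05. Psma4, an alpha ring subunit, stood at 74.5 to 118 (median 80.4) CPM at day 7, against 138, 186, 107, 142 and 119.5 CPM in controls. Day 7 libraries 6 and 7 reached the control range, and the other 5 lay below it (log2 change -0.63 ± 0.15, edgeR adjusted p = 0.0777). Psma3 was the exception, with 34.3 ± 4.60 CPM at day 7 and 31.9 ± 3.51 CPM in controls and a log2 change of 0.11 ± 0.13 (adjusted p = 0.689). Among the beta genes Psmb5 and Psmb6 had the lowest changes, and all 3 constitutive catalytic genes had an unadjusted p below 0.05. Psmb5, the chymotrypsin-like subunit, had 3.47 to 6.69 (median 4.70) CPM at day 7, against 5.69, 9.63, 7.09, 7.72 and 10.3 CPM in controls, a log2 change of -0.69 ± 0.22 with an adjusted p of 0.0904. Only control library 1 lay within the day 7 range. Psmb6, the caspase-like subunit, had 59.6 to 88.4 (median 68.9) CPM at day 7, against 93.4, 121, 94.1, 91.6 and 82.4 CPM in controls (log2 change -0.46 ± 0.13, adjusted p = 0.0777). Here day 7 library 4, the highest, exceeded the lowest control and the other 6 day 7 libraries did not. Psmb7, the trypsin-like subunit, had 62.5 to 84.4 (median 75.6) CPM at day 7, against 89.7, 99.7, 93.4, 74.9 and 74.2 CPM in controls (log2 change -0.24 ± 0.11, adjusted p = 0.199), with overlapping groups.

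None of the immunoproteasome genes was called at day 7. Summed, they stood at 95.2% of the mean of all 5 controls and at 86.6% of that of control libraries 3 to 5, where all 49 genes stood at 86.8%. Psmb8 had 109 to 166 (median 156) CPM, against 153, 107, 155, 194 and 183 CPM in controls, and its log2 change was -0.10 ± 0.14 (edgeR adjusted p = 0.739). Psmb9 had 46.0 to 51.4 (median 46.9) CPM, a narrow range that lay inside that of the controls, at 47.9, 36.8, 40.6, 56.4 and 52.0 CPM (log2 change 0.03 ± 0.10, adjusted p = 0.914). Psmb10 had 51.3 to 74.4 (median 60.2) CPM, against 56.3, 60.3, 57.7, 76.7 and 78.8 CPM in controls (log2 change -0.08 ± 0.15, adjusted p = 0.818). All 3 genes overlapped the controls, and these p-values do not show that the levels were equal. The signs were not firm: Psmb8 and Psmb10 turned positive with the share of reads outside gene models as a covariate, and Psmb9 negative without control libraries 1 and 2. Within a library, the ratio of an immunoproteasome gene to its partner does not depend on scaling. The log2 ratio of Psmb8 to Psmb5 averaged 4.90 ± 0.27 at day 7, 4.65 ± 0.34 at day 14 and 4.30 ± 0.51 in controls (SD, n = 7, 4 and 5). For Psmb9 to Psmb6 it averaged -0.55 ± 0.21 at day 7, -0.80 ± 0.25 at day 14 and -1.05 ± 0.44 in controls. Psmb10 to Psmb7 differed by 0.16 between day 7 and control, less than either group's SD. The day 7 means of the first 2 ratios were higher than control by 0.61 and 0.50, and by 0.49 and 0.31 against control libraries 3 to 5 alone. Against those libraries the day 7 difference of Psmb10 to Psmb7 was -0.04. At day 14 the differences of the ratios, in the same order, were 0.36, 0.25 and -0.01 against all controls. Against control libraries 3 to 5 they were 0.23, 0.06 and -0.22. Day 7 and control libraries overlapped in each ratio, and the ratios were not tested.

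**Figure D4:**
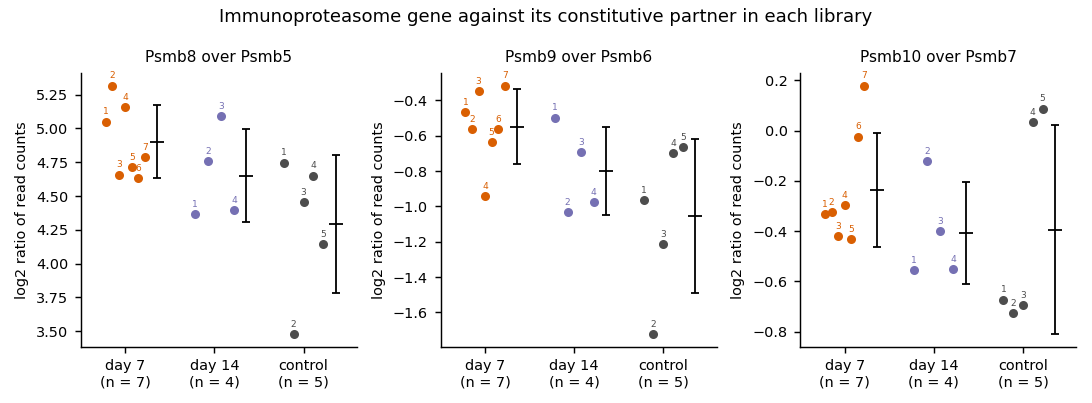
Log2 ratio of read counts of an immunoproteasome gene to the subunit it replaces, 1 numbered point per library, with the mean ± SD of each group as a bar. Day 7 libraries lie between 4.63 and 5.32 for Psmb8 over Psmb5 and control libraries between 3.48 and 4.75, with control library 2 lowest there and for Psmb9 over Psmb6.

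Of the activator genes, Psme3 forms the nuclear activator ring that works without ubiquitin, and it had 125 to 150.0 (median 129.6) CPM at day 7, against 190.4, 229.7, 201, 150.0 and 154 CPM in controls. The highest day 7 library, at 150.02 CPM, lay just under the lowest control, at 150.04 CPM (log2 change -0.45 ± 0.12, edgeR adjusted p = 0.0777). Psme1 and Psme2 form the interferon-induced cytosolic activator, and neither was called. Psme1 had 292 to 409 (median 341) CPM at day 7, against 354, 249, 357, 364 and 404 CPM in controls (log2 change 0.0021 ± 0.13, adjusted p = 0.996). Psme2 had 34.3 to 64.9 (median 60.0) CPM, against 49.4, 45.0, 55.6, 72.6 and 58.5 CPM in controls (log2 change -0.03 ± 0.15, adjusted p = 0.948). In both genes control library 2 was the lowest control, while it was the highest control for Psme3. The log2 ratio of Psme1 to Psme3 was higher at day 7 than in controls by 0.45, and by 0.18 against control libraries 3 to 5. For Psme2 to Psme3 these differences were 0.40 and 0.11, the groups overlapped, and neither ratio was tested. The sign of Psme1 turned without control libraries 1 and 2, to -0.11, and that of Psme2 under scaling by library totals, to 0.02. Psme4, a further nuclear activator, had a positive change, 0.11 ± 0.08 (adjusted p = 0.471). None of the 4 assembly genes had an unadjusted p below 0.05 at day 7, and their log2 changes ran from -0.45 ± 0.23 for Psmg1 to -0.10 ± 0.26 for Psmg3. Psmg1 stood at 22.7 ± 5.44 CPM at day 7 and 31.1 ± 12.1 CPM in controls, where library 2 alone held 52.3 CPM. Psmf1 was at 30.5 ± 4.65 CPM at day 7 and 31.5 ± 3.56 CPM in controls (adjusted p = 0.888), and Psmc3ip, no subunit, at 3.104 ± 1.17 and 4.67 ± 2.36 CPM (adjusted p = 0.440).

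The later time was set against the same controls. At day 14, 3 proteasome genes fell and none rose with edgeR's quasi-likelihood test, 3 of 49 where 1.8% of all genes were called lower and 1.33% higher. The 3 were Psmd4, Psmb6 and Psmd8. Negative changes stood in 45 of 49, against 42.3% of all genes, with a median of -0.34, against 0.12 over all genes, and 20 of 49 were lower at an unadjusted p below 0.05, against 11.8% of all genes. Psmb6, Psmc6, Psmd2, Psmd4 and Psmd8 had every day 14 library below every control, 5 of 49, against 2.85% of all genes, and none lay higher in every library, against 5.24%. Leaving out any of control libraries 1, 3 and 4 or any of day 14 libraries 1, 3 and 4 gave 0 calls, while 11 were called without day 14 library 2 and 4 without control library 2 or 5. In the fits with more calls the whole table had 999, 519 and 557 lower genes, against 331 with all libraries. In the fits with 0 calls it had fewer: 119, 18 and 83 without control library 1, 3 or 4. Without day 14 library 1, 3 or 4 it had 27, 23 and 54. With the share of reads outside gene models as a covariate 0 were called, with 0 lower genes in the whole table. In that fit 2 were lower at an unadjusted p below 0.05. Without control libraries 1 and 2, 1 was called, Psmb9 and none of these 3 genes, with 486 lower genes in the whole table. There 9 were lower at an unadjusted p below 0.05. The share of all genes at that unadjusted p was not counted in either refit. Whether 2 and 9 differ from it is therefore not known.

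Psmd4 had 79.8, 90.3, 82.9 and 75.1 CPM in day 14 libraries 1 to 4, against 106, 123, 101, 109 and 103 CPM in control libraries 1 to 5. Each day 14 library was below each control, and day 14 library 2 was the nearest to them. The log2 change was -0.40 ± 0.09 (SE), edgeR adjusted p = 0.0320, close to its value at day 7. Psmb6 (chromosome 11, 70525367 to 70527858, plus strand, GRCm38) had 46.9, 80.7, 61.4 and 66.9 CPM at day 14, against 93.4, 121, 94.1, 91.6 and 82.4 CPM in controls, a log2 change of -0.59 ± 0.15 with an adjusted p of 0.0402. Day 14 library 2 lay just under the lowest control, and the other 3 well under it. Psmd8, a cap lid subunit (chromosome 7, 29174188 to 29180701, minus strand, GRCm38), had 61.8, 94.3, 73.6 and 89.7 CPM at day 14, against 113, 107, 117, 101 and 112 CPM in controls, a log2 change of -0.46 ± 0.12 with an adjusted p of 0.0417. No other cap gene was called. Psmd10, which encodes the assembly chaperone gankyrin, had the lowest Psmd change, -0.56 ± 0.21 (adjusted p = 0.131), and Psmc5 the lowest among the ATPases, -0.47 ± 0.15 (adjusted p = 0.0840). Psmc4, at -0.14 ± 0.12 (adjusted p = 0.485), had the smallest ATPase change, and its sign turned under scaling by library totals. With the share of reads outside gene models as a covariate the log2 change was -0.42 for Psmd4, -0.39 for Psmb6 and -0.21 for Psmd8, with adjusted p of 0.447, 0.660 and 0.752 in that order. Psmd14 was again close to control, at 79.7 ± 12.6 CPM at day 14 and 77.7 ± 6.66 CPM in controls (log2 change 0.03 ± 0.12, adjusted p = 0.868).

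**Figure D5:**
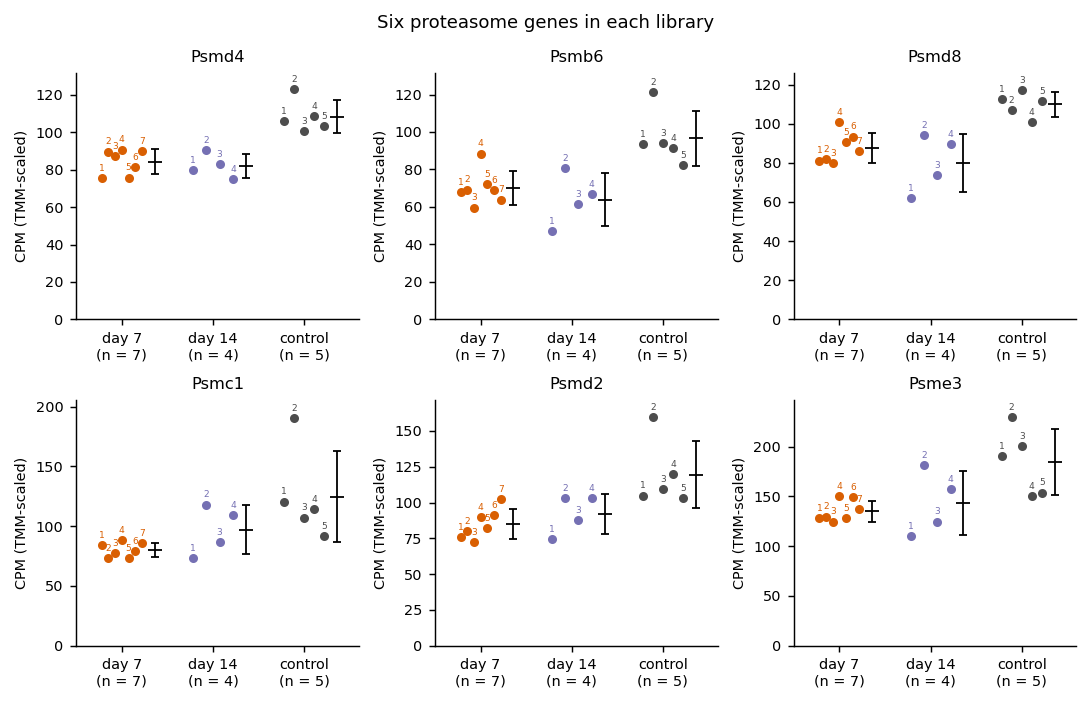
CPM (TMM-scaled, axis from 0) of Psmd4, Psmb6, Psmd8, Psmc1, Psmd2 and Psme3 in every library, with library numbers beside the points and the mean ± SD of each group as a bar. Day 7 and control libraries do not overlap for Psmd4, Psmc1, Psmd2 and Psme3, day 14 and control libraries do not overlap for Psmd4, Psmb6, Psmd8 and Psmd2, and control library 2 is the highest point for Psmc1 at 190.3 CPM.

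In the core, all 7 expressed alpha genes had negative changes at day 14 and 3 an unadjusted p below 0.05, with Psma4 lowest at -0.49 ± 0.18 (edgeR adjusted p = 0.122). Of the constitutive catalytic genes, Psmb5 had 5.98, 6.80, 3.84 and 6.53 CPM at day 14, against 5.69, 9.63, 7.09, 7.72 and 10.3 CPM in controls, with overlap (log2 change -0.48 ± 0.26, adjusted p = 0.269). Psmb7 had 58.6, 81.7, 64.0 and 67.8 CPM, against 89.7, 99.7, 93.4, 74.9 and 74.2 CPM in controls (log2 change -0.34 ± 0.12, adjusted p = 0.112), and day 14 library 2 alone reached the control range. The immunoproteasome genes were all negative at day 14, and none was called. Psmb9 came nearest, with 33.3, 39.4, 38.0 and 34.0 CPM, against 47.9, 36.8, 40.6, 56.4 and 52.0 CPM in controls (log2 change -0.37 ± 0.12, adjusted p = 0.0848). Day 14 libraries 2 and 3 lay above control library 2, the lowest control, and all 4 lay below the other controls. Psmb8 had 123, 184, 131 and 137 CPM, against 153, 107, 155, 194 and 183 CPM in controls (log2 change -0.14 ± 0.16, adjusted p = 0.60), and Psmb10 had 39.9, 75.1, 48.5 and 46.3 CPM, against 56.3, 60.3, 57.7, 76.7 and 78.8 CPM (log2 change -0.33 ± 0.17, adjusted p = 0.254). Day 14 library 2 held the highest value of its group in both. Psmb8, like Psme1, had a positive change under scaling by library totals. Psme1 stood at 319 ± 73.2 CPM at day 14 and 345 ± 57.6 CPM in controls (adjusted p = 0.646), Psme2 at 48.4 ± 9.61 and 56.2 ± 10.6 CPM (adjusted p = 0.454) and Psme3 at 143 ± 32.1 and 185 ± 33.4 CPM (adjusted p = 0.146). Psme4 had a log2 change of 0.01 ± 0.09. The 4 assembly genes ran from -0.48 ± 0.25 for Psmg4 to -0.36 ± 0.23 for Psmg2, with no unadjusted p below 0.05.

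Day 14 and day 7 were compared directly, with both groups from mice with lymphoma. With edgeR's quasi-likelihood test 0 of 49 proteasome genes were lower and 0 higher, where 0.553% and 0.412% of all genes were called, and with DESeq2 and limma-voom likewise 0 in each direction. At an unadjusted p below 0.05, 2 were lower, Psmb9 and Psma3, against 8.27% of all genes, and 0 were higher, against 6.54%. Changes were above 0 in 20 of 49, against 59.4% of all genes, and the median log2 change was -0.04, against 0.12 over all genes. The side of 0 turned with the processing. Under scaling by library totals 10 of 49 were below 0, with a median of 0.12, against 0.29 over all genes. With the share of reads outside gene models as a covariate 21 were below 0, and both medians were 0.014. Psmb9 had 33.3, 39.4, 38.0 and 34.0 CPM at day 14, against 46.0 to 51.4 (median 46.9) CPM at day 7 (log2 change -0.40 ± 0.11, adjusted p = 0.0881). Its 2 groups did not overlap, which held for 2.78% of all genes, and its adjusted p passed the threshold in fits to these 2 groups alone, without control libraries 1 and 2, and with Y-linked transcripts as a covariate. Psma3 stood at 27.5 ± 5.09 CPM at day 14 and 34.3 ± 4.60 CPM at day 7 (log2 change -0.32 ± 0.14, adjusted p = 0.286). On the positive side Psmc1 had the smallest p after Psma8, with 96.9 ± 20.5 CPM at day 14 and 80.2 ± 6.03 CPM at day 7 (log2 change 0.27 ± 0.16, adjusted p = 0.455), and Psmd13 the highest cap change, 0.31 ± 0.21 (adjusted p = 0.531). Psmb2 and Psmb1, next by p, had 0.18 ± 0.11 and -0.18 ± 0.11. Psma8 stood at 0.633, 0.486, 0.675 and 1.09 CPM in day 14 libraries 1 to 4, against 0 to 0.47 CPM (median 0.172) at day 7, and was the 1 gene of the 49 with every day 14 library higher, against 1.77% of all genes. Among the activator and assembly genes the changes lay between -0.33 ± 0.24 (Psmg4) and 0.08 ± 0.13 (Psme3), and none had an unadjusted p below 0.05. Day 7 and day 14 share their controls, so their changes against control are not independent of each other.

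Genes that work beside these 49 were read from lists chosen with earlier results of these data known. Of 6 cap, activator and maturation genes outside the symbol pattern, 0 were called at either day. Shfm1, the table's symbol for the small cap subunit gene Sem1, stood at 59.9 ± 6.31 CPM at day 7 and 58.0 ± 16.6 CPM at day 14, against 94.4 ± 24.0 CPM in controls (SD, n = 7, 4 and 5; edgeR adjusted p = 0.0777 and 0.0519). Pomp, the core maturation factor, stood at 54.8 ± 5.18 and 54.2 ± 11.8 CPM, against 73.4 ± 13.2 CPM in controls (adjusted p = 0.0835 and 0.0983). Both were chosen after their values were seen. The most abundant of this list, AI314180, the table's symbol for the proteasome adaptor Ecpas, stood at 141 ± 9.17 and 151 ± 30.6 CPM, against 156 ± 21.6 CPM in controls (adjusted p = 0.486 and 0.819). Of 8 regulators, 0 were called in any comparison. Against control 6 of the 8 had negative changes at each day, where 43.8% and 42.3% of all genes did. Their medians were -0.08 at day 7 and -0.12 at day 14. Nfe2l1, which encodes the NRF factor that induces proteasome genes when proteasome activity is low, stood at 74.2 ± 13.5 and 70.0 ± 8.13 CPM, against 87.5 ± 14.2 CPM in controls (adjusted p = 0.310 and 0.215), and was also chosen after its value was seen. Its day 7 log2 change of -0.24 was the lowest of the 8. Stat3, the most abundant of the list, stood at 219.7 ± 17.3 and 282 ± 53.2 CPM, against 235 ± 13.5 CPM (adjusted p = 0.610 and 0.175).

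Among 17 ubiquitin and shuttling genes 0 were called at day 7 and 3 fell at day 14, both against control. Of all genes, 0% and 1.8% were called lower in these comparisons. 1 of these was Rps27a, a ubiquitin precursor gene that also encodes a ribosomal protein, which had 87.8, 84.2, 68.4 and 75.6 CPM at day 14, against 107, 94.2, 126, 176 and 117 CPM in controls (log2 change -0.65 ± 0.18, edgeR adjusted p = 0.0490). With the share of reads outside gene models as a covariate its adjusted p was 0.802, and the call was also lost under both other scalings and without day 14 library 1, 3 or 4 or control library 1, 3 or 4. Its day 14 libraries all lay below its control libraries, which held for 2.85% of all genes. The list median was -0.21 at day 7 and -0.25 at day 14, both against control. The 12 class I peptide supply and interferon regulator genes had 9 positive changes at day 7, with 0 called and a median of 0.07. Of all genes, 56.2% had a positive change there. At day 14 against control 10 of the 12 were negative, against 42.3% of all genes, also with 0 called and a median of -0.15. Against day 7 1 of them fell at day 14, Irf1, an interferon-induced factor known to act on immunoproteasome genes, which had 151, 253, 175 and 143 CPM at day 14, against 260.0 to 329.9 (median 293) CPM at day 7 (log2 change -0.70 ± 0.13, adjusted p = 0.0200). All 4 day 14 libraries lay below all 7 day 7 libraries, which held for 2.78% of all genes, where 0.553% were called lower. The call of Irf1 was lost without day 14 library 1, 3 or 4 or day 7 library 5. B2m, the most abundant of the list, stood at 3489 ± 832 and 2698 ± 816 CPM, against 3454 ± 633 CPM in controls (adjusted p = 0.979 and 0.343). Tap1, the neighbour of Psmb9, was chosen after its values were seen and stood at 190.1 ± 8.74 and 195 ± 13.2 CPM, against 160.1 ± 32.3 CPM (adjusted p = 0.173 and 0.164). Nlrc5, likewise chosen, had the list's highest log2 change against control at both days. It was 0.45 ± 0.10 at day 7 and 0.39 ± 0.12 at day 14 (edgeR adjusted p = 0.0709 and 0.0682). Every day 7 and day 14 library lay above every control, which held for 0.988% and 5.24% of all genes.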

How the data were processed

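RNA was sequenced from 16 libraries of purified mouse CD4 T cells. The deposited table holds whole-number read counts per gene, made by the authors with HTSeq 0.6.1 on mm10 after bcl2fastq 2.20.0.422 and cutadapt 1.8.1, per the submitters' processing notes. The aligner, annotation and strand setting are not given in the sources used here. The 5 closing lines name no gene and were left out of library sizes and tests; reads outside gene models, in 1 of them, made up 47.1% to 69.8% of each library. Groups came from the labels. Each library was taken as 1 mouse, because the design text counts mice per group. The main test was edgeR 4.0.16 under R 4.3.3. There filterByExpr kept 18430 of 23479 genes, scaling was TMM, and a quasi-likelihood model over all 16 libraries had a common biological coefficient of variation of 54.5%. P-values were adjusted over all tested genes (Benjamini-Hochberg), with a threshold of 0.05. Values are TMM-scaled CPM. The SE of a log2 change is its size divided by the root of F. The test was first tried on simulated counts. Alternatives were RLE scaling, library totals, no filter, DESeq2 1.42.0, limma-voom (limma 3.58.1), fits to 2 groups, a replicate block, covariates, and fits without control libraries 1 and 2 or any 1 library. The genes and the lists of companion and marker genes were chosen with earlier results of these data known. Genes named with values were the catalytic and immunoproteasome pairs, Psme1 to Psme3, the called or smallest-p members, the extremes of each role, and called or most abundant genes of each companion list; others are marked, and some that the rule names are not reported here. Positions are GENCODE's for GRCm38, matched by symbol. Promoters are RefSeq's for GRCm38.p6. The worth of 3 reads covers counting error only.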

Additional observations from a re-analysis of the deposited data

Results flagged for a closer look

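Of 129 groups of 4 to 7 libraries examined, 7 held 1 library far from the rest by Dixon's criterion, and chance gives such a library in about 1 in 20 groups. Control library 2 was the high one in 4 of them: Psma8 at 1.58 CPM, Psmb2 at 48.7 CPM, Psmg1 at 52.3 CPM and the summed assembly genes at 93.2 CPM. Day 14 library 2 held 62.7 CPM of Psme2, day 7 library 2 held 94.0 CPM of Psmc6 and day 7 library 4 held 13.4 CPM of Psmg4, each above the rest of its group.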

How the results depend on the processing

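Counts of proteasome genes called lower, 0 at day 7 against control, 3 at day 14 against control and 0 at day 14 against day 7, moved with the processing, and counts called higher stayed 0 in every fit run. At day 7 against control DESeq2 called 13 lower, the replicate block 1 and Y-linked transcripts as a covariate 5, where the whole table had 1104, 29 and 490, and the other settings called 0, with leave-one-out fits at 0 to 8. At day 14 against control RLE scaling and limma-voom called 3, DESeq2 5, no filter 2, control libraries 3 to 5 alone 1, and Y-linked transcripts as a covariate 3. There, scaling by library totals, fits to the 2 groups alone, the replicate block and the share of reads outside gene models as a covariate called 0, with leave-one-out fits at 0 to 11. The whole table there had 331 lower genes as reported, 250 with RLE scaling, 465 with limma-voom, 699 with DESeq2 and 210 with no filter. It had 486 with control libraries 3 to 5 alone and 483 with the Y-linked covariate. In the settings with 0 calls it had 100 with library totals, 0 with the 2 groups alone, 21 with the replicate block and 0 with the share as a covariate. At day 14 against day 7 fits to the 2 groups alone, control libraries 3 to 5 alone and Y-linked transcripts as a covariate each called 1, Psmb9, among 396, 450 and 456 lower genes of the whole table, and the others called 0. The Y-linked covariate was chosen after seeing the data. The replicate numbers of different mice were not taken as pairs, since 3 of 13 pairs of same-numbered libraries had a correlation of their deviations above 0.1 (range -0.34 to 0.30).

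Of the log2 changes of single genes under these settings, 1371 kept direction and side of the threshold, 35 came to pass it, 75 no longer passed it and 85 changed sign. Most sign changes were of values near 0, and the cause was not tested. The log2 changes that turned were as follows. With RLE scaling they were Psmd14 0.016 at day 7 against control, and AI314180 0.00071 at day 14 against control. With scaling by library totals they were Psme2 0.016 and Psmd14 0.034 at day 7 against control, Psmb8 0.053, Psme1 0.074, Psmc4 0.053 and AI314180 0.14 at day 14 against control, and Psmb8 0.11, Psmb6 0.016, Psmb7 0.045, Psme1 0.030 and Psmc6 0.0013 at day 14 against day 7. Without a filter on low counts they were Psmd14 0.0027 at day 7 against control. With DESeq2 they were Psmd14 0.015 at day 7 against control, and AI314180 0.00081 at day 14 against control. With limma-voom they were B2m -0.0034 at day 7 against control. In fits to the 2 groups alone they were Psmd14 0.027 at day 7 against control. With the replicate number as a block they were Psma8 0.14 and Psmd14 0.047 at day 7 against control, Psmd14 -0.0042 at day 14 against control, and Psmb8 0.062 at day 14 against day 7. With the share of reads outside gene models as a covariate they were Psmb8 0.20, Psmb10 0.18, Psme2 0.27, Psmb11 -1.52, Psmd14 0.093, Psmg3 0.10 and Stat3 0.019 at day 7 against control, Psmb8 0.32, Psmb10 0.059, Psme1 0.16, Psme2 0.25, Psma8 -0.76, Psmb11 -2.13, Psmg2 0.0044 and AI314180 0.034 at day 14 against control, and Psmb8 0.12 at day 14 against day 7. Without control libraries 1 and 2 they were Psmb9 -0.059, Psme1 -0.11, Psma8 0.29, Psmd14 0.034, Psmg3 0.084 and B2m -0.065 at day 7 against control, and AI314180 0.0079 at day 14 against control. With Y-linked transcripts as a covariate they were Psme1 -0.022 and B2m -0.056 at day 7 against control. Over fits that left out 1 library the ranges that crossed 0 were Psmb8 -0.21 to 0.022, Psmb9 -0.047 to 0.15, Psmb10 -0.13 to 0.034, Psme1 -0.10 to 0.065, Psme2 -0.10 to 0.13, Psma8 -1.86 to 0.69, Psmd14 -0.054 to 0.090, Psmg3 -0.25 to 0.028 and B2m -0.084 to 0.13 at day 7 against control, Psmb11 -0.039 to 1.21, Psmd14 -0.057 to 0.15, Psme4 -0.055 to 0.11 and AI314180 -0.17 to 0.089 at day 14 against control, and Psmb8 -0.19 to 0.0013, Psme3 -0.053 to 0.16, Psmg1 -0.15 to 0.20 and AI314180 -0.019 to 0.18 at day 14 against day 7. Scaling by library totals moved the median of all genes to 0.11 at day 7 and 0.32 at day 14, both against control, and the proteasome genes' median relative to it stayed at -0.36 and -0.48. Their own medians were then -0.25 and -0.16, with 42 and 36 of 49 below 0. Depth limits Psma8 and Psmb11, which few reads support.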
